A study of Drosophila melanogaster with 9 samples.

Results

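The 5p arms of miR-9a, miR-9b, miR-9c and miR-306 (dme-miR-9a-5p, dme-miR-9b-5p, dme-miR-9c-5p and dme-miR-306-5p) were followed in midguts of adult wild-type Oregon-R flies (Drosophila melanogaster). These 4 miRNAs were taken by name from a deposited table of 467, of which 145 were listed above 0 in at least 1 library. The series holds 9 small RNA libraries in 3 groups of 3. Pe day 3 flies were 7 to 8 days old, and Pe day 0 flies were 4 to 5 days old. Both carry a treatment label written only as Pe, which the labels do not spell out. Mock day 0 flies were 4 to 5 days old and carry the treatment label sucrose. The study looked at the start and the end of midgut regeneration, and Pe day 3 differs from both other groups in age as well. The labels do not say whether the replicates are different pools of flies, so the tests measure the spread between these libraries, which may be technical.

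miRNAs guide Argonaute proteins to messenger RNAs, mainly through the seed, the bases that follow the first base of the 5′ end. miR-9 is conserved across animals, and in flies it exists as miR-9a, miR-9b and miR-9c, each made as a 5p and a 3p arm of its hairpin. Fly miR-9a is known for limiting the transcription factor Senseless, which keeps the number of sensory organ precursors in check. Fly miR-306 is processed from a hairpin in one cluster with those of miR-9c, miR-79 and miR-9b. Together with its neighbour miR-79, it has been tied to stress signalling through JNK in imaginal discs.

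The annotation places 3 of the 4 hairpins in one stretch of chromosome 2L. In Ensembl release 115 of assembly BDGP6, on the plus strand, the miR-9c hairpin runs from 16697924 to 16698015, miR-306 from 16698404 to 16698488, miR-79 from 16698554 to 16698650 and miR-9b from 16698744 to 16698834. The whole stretch spans 911 bases. It lies within introns of all 5 annotated transcripts of grp, the gene of the checkpoint kinase Chk1, on the same strand. The miR-9a hairpin lies apart on chromosome 3L, from 19565131 to 19565208 on the plus strand, in an exon of the long non-coding RNA CR45916. Hairpins were matched to the annotation by name, and the build behind the deposited values was not given in the sources used here.

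Reads along the stretch were uneven. Over the 9 libraries together, miR-9c-5p had 923 reads, miR-9b-5p 294 and miR-306-5p 291, while both arms of miR-79, between the last of these, were listed at 0 in every library. The unlinked miR-9a-5p had 308 reads. The smallest value listed in any library was worth 2 reads, so an arm listed at 0 may have had 1 read.

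**Figure D1:**
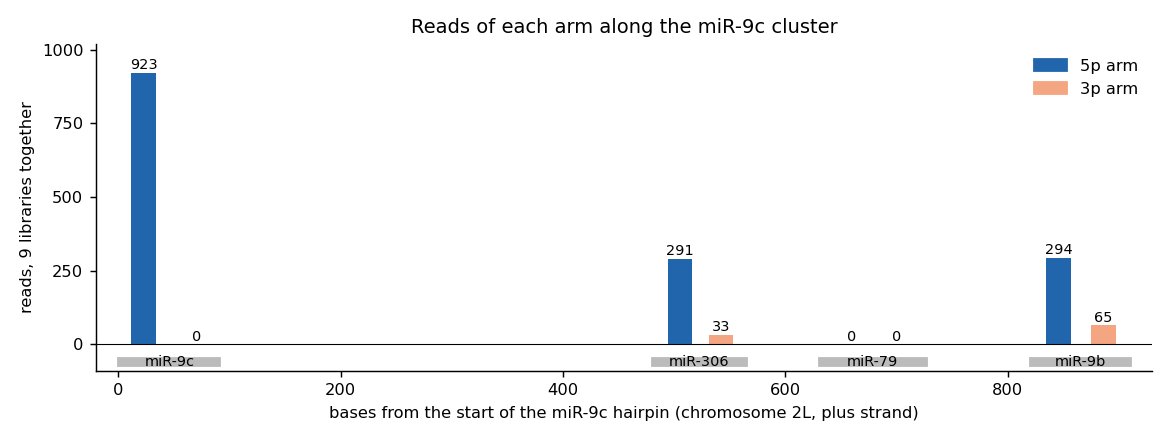
Reads of the 5p arms (blue) and 3p arms (orange) along the miR-9c stretch, summed over the 9 libraries, against distance in bases from the start of the miR-9c hairpin; grey boxes are hairpins to scale. miR-9c-5p stands highest with 923 reads, and miR-79 has 0 on both arms.

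The libraries held 224873 to 1238105 miRNA reads, recovered from the deposited RPM, in which every library's miRNA reads are brought to one total. Midgut miRNAs (the arms of miR-956, miR-263a, miR-281 and miR-31a) summed to 772734 to 842658 RPM in every library. Most of this sum was miR-956-3p, so it does not show the level of the others. In the limma fit described below, miR-281-2-5p was lower than in mock in Pe day 0 (log2 change -1.06, limma adjusted p = 0.021). It was also lower in Pe day 3 (-1.02, limma adjusted p = 0.013), as was miR-281-1-5p (-1.03, limma adjusted p = 0.030). No other tested arm of this list was called. Pe day 0 replicate 3 stood apart. It was the deepest library, had 13 miRNAs above 0 that no other library had, and held miR-989-3p, a miRNA known from the ovary, at 77.5 RPM (96 reads), where the other 8 libraries listed 0. The ovary list (miR-989, miR-994 and miR-318, with 3 of 6 arms above 0) summed to 129 RPM in that library. In the others the list reached 0 to 27.5 RPM in Pe day 3, 0 to 16.1 RPM in the remaining Pe day 0 libraries and 0 to 16.5 RPM in mock. The muscle list (miR-1 and miR-133, 2 of 4 arms above 0) summed to 267 to 382 RPM in Pe day 3, 64.2 to 140 RPM in Pe day 0 and 76.3 to 110 RPM in mock. The neuronal list had 1 of 6 arms above 0, at 2.42 RPM in Pe day 0 replicate 3 and 0 elsewhere. The 28 testis arms were listed at 0, and the early embryo list (3 of 13 arms above 0) summed to 0 to 33.0 RPM.

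All 4 members were scarce. For means and tests, RPM were divided by TMM factors, which centre the log ratios of most miRNAs between libraries. Averaged over the 9 libraries, miR-9c-5p stood at 154 ± 50.8 scaled RPM (SD, n = 9), miR-9b-5p at 55.9 ± 19.9, miR-306-5p at 50.1 ± 14.1 and miR-9a-5p at 41.8 ± 38.3. Among the 73 miRNAs abundant enough to test, they ranked 43, 54, 56 and 58 by mean level, where the median of all was 253 scaled RPM. The next miRNAs by level were miR-1-3p above miR-9c-5p (169 scaled RPM) and miR-1012-5p below it (141), and miR-999-3p above miR-9b-5p (60.4) and miR-996-5p below it (50.5). miR-2b-2-5p lay between miR-306-5p and miR-9a-5p (44.3), and miR-278-3p lay below miR-9a-5p (41.0).

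The order of the members was firm only at the top. miR-9c-5p exceeded each of the other members in 9 of 9 libraries. After a pseudocount of 2 reads was added to both members, the excess was 1.50 to 9.31 times within a library. The largest, over miR-9a-5p in Pe day 0 replicate 2, came from 47 against 4 reads, so the ratio of the reads themselves was larger. The log2 ratios between members below include the same pseudocount. Below miR-9c-5p, miR-9b-5p exceeded miR-306-5p in 4 libraries and equalled it in 2. Their mean log2 ratio of 0.13 ± 0.63 (SD, n = 9) was smaller than its spread. miR-306-5p exceeded miR-9a-5p in 7 of 9 libraries, with a mean log2 ratio of miR-9a-5p to miR-306-5p of -0.49 ± 0.76. miR-9b-5p likewise exceeded miR-9a-5p in 7 of 9, with a mean log2 ratio of 0.62 ± 1.02. These 3 could not be ordered beyond the spread between libraries.

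miR-9a-5p, which has its own locus, was dominated by a single library. In Pe day 3 it had 37.0, 27.5 and 26.7 RPM (32, 11 and 6 reads). In Pe day 0 it had 19.8, 13.5 and 146 RPM (16, 4 and 181 reads), against 46.6, 27.5 and 30.1 RPM (33, 10 and 15 reads) in mock day 0. As deposited, Pe day 0 replicate 3 thus held the highest value of the 9 and the other Pe day 0 libraries the lowest values. The exact 95% binomial (Clopper-Pearson) intervals were 126 to 169 RPM for the highest and 3.67 to 34.5 RPM for the lowest. After scaling, Pe day 3 replicates 2 and 3 (21.8 and 22.3 scaled RPM) lay below Pe day 0 replicate 1 (22.9). The intervals of single RPM values and of shares of reads cover counting error only, since PCR copies of a molecule are not independent. The spread of miR-9a-5p within groups, 1.01 on the log2 scale, ranked 3 of 73, where the median of all was 0.34.

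miR-9b-5p had its 3 lowest values of the 9, as deposited, in mock. It had 45.1, 65.1 and 84.5 RPM (39, 26 and 19 reads) in Pe day 3. It had 43.2, 94.4 and 72.7 RPM (35, 28 and 90 reads) in Pe day 0, against 39.6, 33.0 and 34.1 RPM (28, 12 and 17 reads) in mock day 0. As deposited, each of the 6 Pe libraries lay above all 3 mock libraries. Of all 73 miRNAs, 23.3% lay wholly above mock in Pe day 0 and 27.4% in Pe day 3. The share that did so in both was not computed. After TMM scaling the groups overlapped, because mock replicate 1 then stood at 52.8 scaled RPM, above 48.6 and 51.4 in Pe day 3 replicates 1 and 2 and above 50.1 in Pe day 0 replicate 1. The scaling factor of that mock library, 0.75, was the lowest of the 9.

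miR-9c-5p, the most abundant member, had its highest mean in Pe day 0. It had 135, 140 and 129 RPM (117, 56 and 29 reads) in Pe day 3. It had 164, 158 and 282 RPM (133, 47 and 349 reads) in Pe day 0, against 123, 160 and 94.4 RPM (87, 58 and 47 reads) in mock day 0. All Pe day 3 values lay below all Pe day 0 values, and mock overlapped with both. The highest value was again that of Pe day 0 replicate 3, with an interval of 253 to 313 RPM.

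miR-306-5p varied least in proportion to its mean over the 9 libraries (CV 28.1%, against 32.9% for miR-9c-5p, 35.5% for miR-9b-5p and 91.6% for miR-9a-5p). It had 41.7, 60.1 and 31.1 RPM (36, 24 and 7 reads) in Pe day 3. It had 43.2, 50.6 and 83.2 RPM (35, 15 and 103 reads) in Pe day 0, against 39.6, 66.1 and 38.2 RPM (28, 24 and 19 reads) in mock day 0. The 3 groups overlapped as deposited. After scaling, all Pe day 3 values (26.1 to 47.5 scaled RPM) lay below all Pe day 0 values (50.1 to 77.8).

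**Figure D2:**
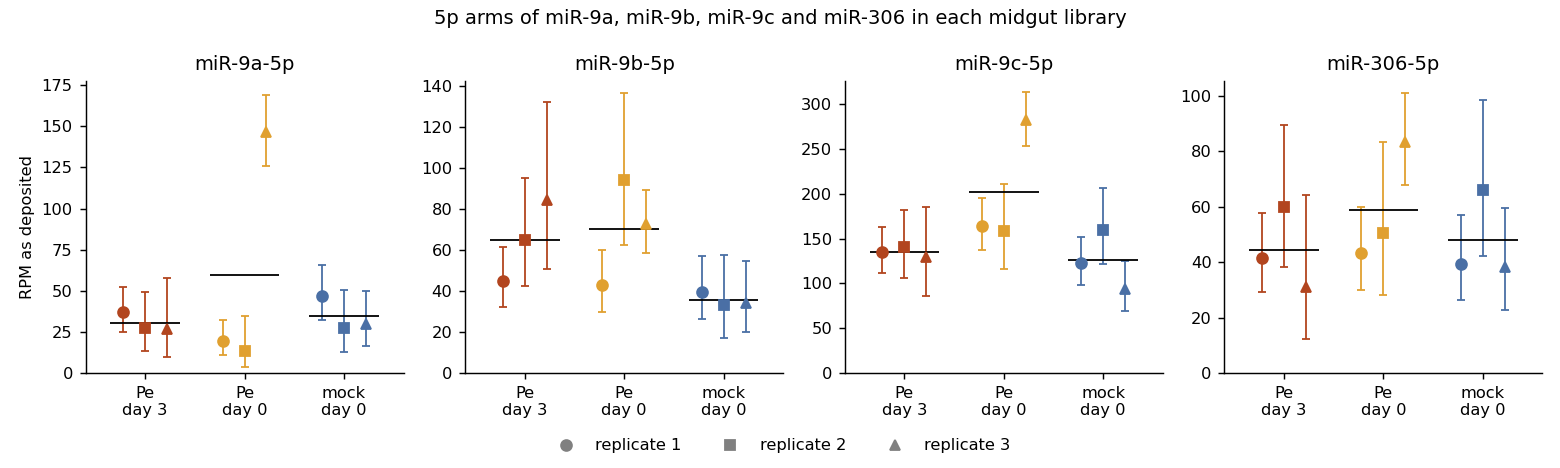
RPM as deposited (y axis, from 0) of the 4 members in each library, grouped as Pe day 3, Pe day 0 and mock day 0, with replicate numbers as symbols, exact 95% counting intervals as bars and group means as lines. Pe day 0 replicate 3 (triangle) is the highest of the 9 libraries for miR-9a-5p at 146 RPM, miR-9c-5p at 282 and miR-306-5p at 83.2, but not for miR-9b-5p.

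Pe day 0 replicate 3, the library with miR-989-3p, moved with 3 of the 4 members. On the scaled values, 12 of the 73 miRNAs, or 16.4%, were highest in that library. miR-9a-5p had the largest excess over the next highest library of all 73 (log2 1.09), miR-9c-5p the fifth (0.46) and miR-306-5p the seventh (0.35). miR-9b-5p was not among these 12, at 68.0 scaled RPM in that library and 96.0 in Pe day 0 replicate 2. The part of ovary RNA in these values was not tested. Below, the members' limma changes that involve Pe day 0 are given with that library and then without it. So are the Pe day 0 ratio of miR-306-5p to miR-9c-5p, the family values, and the 3p shares of miR-9b and miR-306. Other values that include Pe day 0, such as those of the authors' comparisons and the list medians, are given only with it.

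Pe day 3 was set against Pe day 0 to compare the late with the early time point. In limma 0 of the 4 members passed the threshold (Benjamini-Hochberg adjusted p under 0.05 over all 73), where 2.74% of all did. All 4 point estimates lay below 0. miR-9c-5p averaged 122 ± 21.1 scaled RPM in Pe day 3 and 205 ± 52.8 in Pe day 0 (SD, n = 3 each). Its log2 change was -0.72 ± 0.29 SE, with a limma adjusted p of 0.157 and an unadjusted p of 0.019, and it was the only member with an unadjusted p under 0.05, where 17.8% of all had one. miR-306-5p averaged 39.5 ± 11.7 and 59.8 ± 15.6 scaled RPM, with a log2 change of -0.57 ± 0.35 SE (limma adjusted p = 0.342). On the scaled values 24.7% of all 73 did not overlap between these groups. Of the members, 2 did not (miR-9c-5p and miR-306-5p), both lower in Pe day 3, as 13.7% of all were. As deposited, 1 member (miR-9c-5p) was wholly lower in Pe day 3, as 5.48% of all were, and 0 members were wholly higher, against 17.8% of all.

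The remaining members overlapped between these groups. miR-9b-5p averaged 56.9 ± 12.1 scaled RPM in Pe day 3 and 71.3 ± 23.1 in Pe day 0, with a log2 change of -0.28 ± 0.34 SE (limma adjusted p = 0.606). miR-9a-5p averaged 28.0 ± 10.3 and 57.8 ± 68.5 scaled RPM, with a log2 change of -0.39 ± 0.67 SE (limma adjusted p = 0.665). Without Pe day 0 replicate 3 the value of miR-9a-5p turned to 0.50 ± 0.52 SE, while miR-9c-5p stood at -0.53 ± 0.35 SE, miR-306-5p at -0.37 ± 0.42 SE and miR-9b-5p at -0.29 ± 0.40 SE.

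Pe day 3 was then set against mock day 0, which compares the late time point with younger flies labelled sucrose. Here too 0 of 4 members passed in limma, where 17.8% of all 73 did. miR-9b-5p had the only estimate above 0, with a mean of 56.9 ± 12.1 scaled RPM in Pe day 3 and 39.6 ± 11.8 in mock (SD, n = 3 each) and a log2 change of 0.50 ± 0.34 SE (limma adjusted p = 0.388). With RPM as deposited its log2 change was 0.76 ± 0.35 SE (limma adjusted p = 0.136). It was then the 1 member wholly higher in Pe day 3, as 27.4% of all were. On the scaled values 0 of 4 were wholly higher and 0 wholly lower, where 20.5% and 9.59% of all were. miR-9a-5p had a log2 change of -0.40 ± 0.67 SE (limma adjusted p = 0.722) and miR-306-5p of -0.36 ± 0.35 SE (limma adjusted p = 0.524). miR-9c-5p, at 122 ± 21.1 scaled RPM in Pe day 3 and 136 ± 33.5 in mock, had a log2 change of -0.14 ± 0.29 SE (limma adjusted p = 0.755), which turned to 0.13 with RPM as deposited. The median log2 change of all 73 was 0.47 with RPM as deposited, against 0.21 on the scaled values. Both as-deposited changes, of miR-9b-5p and miR-9c-5p, thus include a shift shared by most miRNAs.

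Pe day 0 was set against mock day 0, in flies of one age, to compare the first time point with the sucrose label. Again 0 of 4 members passed in limma, where 4.11% of all 73 did. miR-9b-5p averaged 71.3 ± 23.1 scaled RPM in Pe day 0 and 39.6 ± 11.8 in mock (SD, n = 3 each). Its log2 change was 0.78 ± 0.34 SE, or 0.61 above the median of all 73, with a limma adjusted p of 0.158 and an unadjusted p of 0.030. It was the only member with an unadjusted p under 0.05, where 27.4% of all had one. As deposited it was wholly higher in Pe day 0, as 23.3% of all were, while on the scaled values 0 of 4 members were, against 21.9% of all. Without Pe day 0 replicate 3 its log2 change was 0.62 ± 0.40 SE (limma adjusted p = 0.393). miR-9c-5p averaged 205 ± 52.8 and 136 ± 33.5 scaled RPM, with a log2 change of 0.58 ± 0.29 SE (limma adjusted p = 0.188). It was 0.21 ± 0.35 SE without Pe day 0 replicate 3.

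The other members had no clear direction there. miR-306-5p averaged 59.8 ± 15.6 scaled RPM in Pe day 0 and 51.0 ± 10.2 in mock, with a log2 change of 0.20 ± 0.35 SE (limma adjusted p = 0.846). It turned to -0.16 ± 0.42 SE without Pe day 0 replicate 3. miR-9a-5p averaged 57.8 ± 68.5 and 39.6 ± 19.9 scaled RPM, and its log2 change of -0.01 ± 0.67 SE (limma adjusted p = 0.997) had a 95% interval of -1.49 to 1.47. Without Pe day 0 replicate 3 its log2 change was -1.06 ± 0.52 SE (limma adjusted p = 0.248). The remaining Pe day 0 libraries averaged 18.3 scaled RPM, both below every mock library. They rest on 16 and 4 reads, with exact binomial intervals of 11.3 to 32.1 and 3.67 to 34.5 RPM. These overlap the intervals of mock replicates 2 (13.2 to 50.6 RPM) and 3 (16.9 to 49.7 RPM). The share of all miRNAs that lay below mock in this way was not computed. The comparisons share groups, so their values are not separate evidence. The median of all 73 log2 changes was 0.01, 0.21 and 0.17 in the order given, so the members' values relative to it are lower by that amount.

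**Figure D3:**
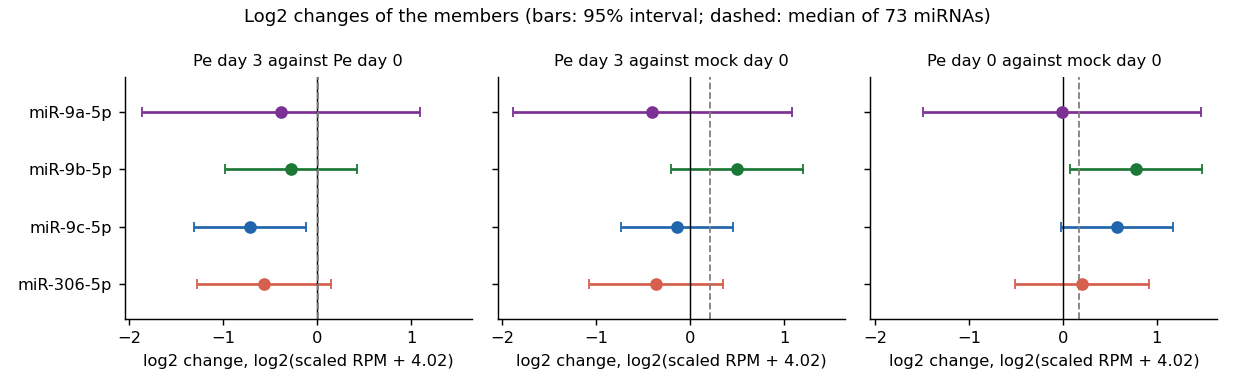
Log2 changes of the 4 members (x axis) in the 3 comparisons, with 95% intervals from limma as bars and the median of the 73 tested miRNAs as a dashed line. The interval of miR-9c-5p lies below 0 for Pe day 3 against Pe day 0 and that of miR-9b-5p above 0 for Pe day 0 against mock day 0, but neither passed after adjustment.

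**Figure D4:**
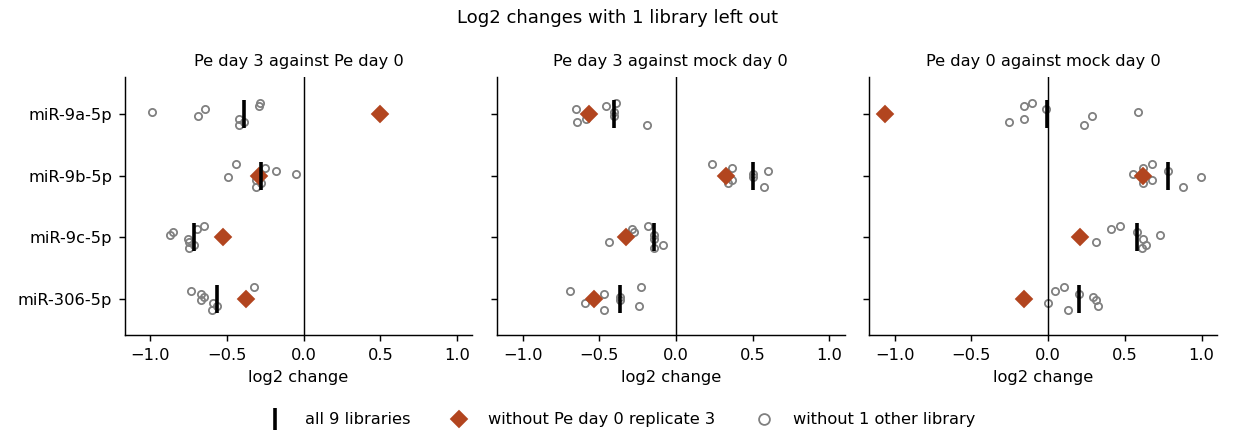
Log2 changes (x axis) of the members with all 9 libraries (black mark), without Pe day 0 replicate 3 (red diamond) and without each other library (grey circles). Leaving out Pe day 0 replicate 3 takes miR-9a-5p to 0.50 for Pe day 3 against Pe day 0 and to -1.06 for Pe day 0 against mock day 0.

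The authors' deposited table of comparisons called none of the members either, with 3.28% of its miRNAs called for Pe day 0 against mock and 13.1% for Pe day 3 against mock. In the authors' deposited table miR-9b-5p had log2 changes of 0.61 ± 0.47 SE for Pe day 0 against mock (adjusted p = 0.399 by DESeq2) and 0.33 ± 0.48 SE for Pe day 3 against mock (adjusted p = 0.792 by DESeq2). For miR-9c-5p the authors' deposited table gave 0.42 ± 0.31 SE and -0.32 ± 0.32 SE, for miR-306-5p 0.07 ± 0.44 SE and -0.50 ± 0.46 SE, and for miR-9a-5p 0.36 ± 0.83 SE and -0.67 ± 0.85 SE, for Pe day 0 and Pe day 3 against mock in that order. Its sign for miR-9a-5p at Pe day 0 was opposite to that of limma.

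Ratios between members within a library hardly depend on how libraries are scaled. For 6 pairs in 3 comparisons, 18 exact two-sided permutation tests were run, of which 3 reached 0.10, the smallest p that 3 against 3 libraries allow, and the smallest adjusted p was 0.60. miR-9b-5p relative to miR-306-5p, from the same stretch, had log2 ratios of 0.11, 0.11 and 1.31 in Pe day 3, against 0.00, -0.91 and -0.15 in mock day 0. All Pe day 3 ratios lay above all mock ratios, with a difference of means of 0.86 (exact permutation p = 0.10, n = 3 each). miR-9b-5p relative to miR-9a-5p averaged 0.96 ± 0.63 in Pe day 3 and 0.06 ± 0.24 in mock day 0, a difference of 0.90 (exact permutation p = 0.10, n = 3 each). miR-306-5p relative to miR-9c-5p averaged -1.71 ± 0.14 in Pe day 0 and -1.34 ± 0.20 in mock day 0, a difference of -0.37 (exact permutation p = 0.10, n = 3 each), which was also -0.37 without Pe day 0 replicate 3 (exact permutation p = 0.20, the smallest that 2 against 3 libraries allow). None of these tests could have passed 0.05.

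miR-9c-5p was the main miR-9 form in every library. Of the 5p reads of miR-9a, miR-9b and miR-9c together, miR-9c-5p took 58.7% ± 4.46 in Pe day 3, 62.7% ± 8.46 in Pe day 0 and 63.6% ± 7.72 in mock day 0 (SD, n = 3 each). miR-9b-5p took 28.0% ± 7.22 in Pe day 3, 23.0% ± 11.0 in Pe day 0 and 18.5% ± 3.28 in mock. miR-9a-5p took 13.3% ± 3.23 in Pe day 3, 14.3% ± 13.0 in Pe day 0 and 17.9% ± 4.98 in mock. Its share was 29.2% (exact binomial interval 25.6% to 32.9%, of 620 reads) in Pe day 0 replicate 3, but 8.70% (5.05% to 13.7%, of 184 reads) in Pe day 0 replicate 1 and 5.06% (1.40% to 12.5%, of 79 reads) in replicate 2. In replicates 1 and 2, miR-9c-5p took 72.3% and 59.5% and miR-9b-5p 19.0% and 35.4%. The family summed to 206 ± 25.6 scaled RPM in Pe day 3, 334 ± 116 in Pe day 0 and 215 ± 57.8 in mock. Without Pe day 0 replicate 3, which stood at 468 scaled RPM, the Pe day 0 libraries stood at 263 and 271.

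**Figure D5:**
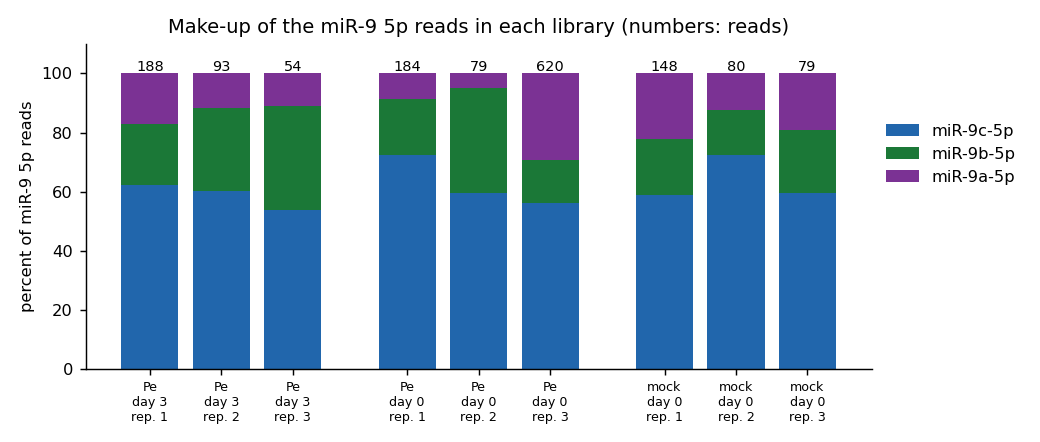
Share (y axis, percent) of miR-9c-5p, miR-9b-5p and miR-9a-5p among the miR-9 5p reads of each library, grouped as Pe day 3, Pe day 0 and mock day 0, with the number of reads above each bar. miR-9c-5p holds 53.7% to 72.5% of the reads, and the share of miR-9a-5p is largest in Pe day 0 replicate 3, at 29.2%.

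The 3p arms were scarcer than the 5p arms, and none was abundant enough to test. Over the 9 libraries, the 3p arm made up 18.1% of the reads of miR-9b (65 beside 294 of the 5p arm), 10.7% of miR-9a (37 beside 308) and 10.2% of miR-306 (33 beside 291), while miR-9c-3p was listed at 0 beside 923 reads of its 5p arm. Of the miR-9a reads, 24 of the 3p arm and 181 of the 5p arm came from Pe day 0 replicate 3. For miR-9b the 3p share of pooled reads was 8.70% in Pe day 3 (exact binomial interval 3.83% to 16.4%), 21.1% in Pe day 0 (15.6% to 27.6%) and 21.9% in mock day 0 (13.1% to 33.1%). For miR-306 it was 13.0% in Pe day 3 (6.41% to 22.6%), 12.1% in Pe day 0 (7.63% to 17.9%) and 2.74% in mock (0.33% to 9.55%). For each hairpin these intervals overlap between groups with all libraries. Without Pe day 0 replicate 3 the Pe day 0 share of miR-306 was 13.8% (6.15% to 25.4%) and that of miR-9b was 28.4% (19.3% to 39.0%), an interval that no longer overlaps that of Pe day 3. The spread between libraries is not in these intervals, and the shares were not tested. In bulk midguts, fewer cells of a type and less RNA per cell cannot be told apart for any of these values.

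Profiles most like each member were found by the root mean square difference from it over the 9 libraries, after each log2 profile was centred on its own mean. For miR-9c-5p the nearest of the other 72 was miR-306-5p (0.26 on the log2 scale), then miR-8-5p (0.28) and the row that joins miR-2a-3p and miR-2c-3p (0.30). For miR-306-5p the nearest were the same miR-2a-3p and miR-2c-3p row (0.21), miR-92a-3p (0.24) and miR-2b-3p (0.24), with miR-9c-5p in the fourth place (0.26). For miR-9b-5p none of the 3 nearest came from the stretch: they were miR-958-3p (0.30), miR-14-3p (0.34) and miR-275-3p (0.36). miR-9c-5p came 21st (0.50) and miR-306-5p 41st (0.60), where the median of the other 72 was 0.59. The part of counting error in these differences was not tested. miR-9a-5p had larger differences, with miR-92b-3p at 0.54, miR-33-5p and miR-9c-5p both at 0.68, and miR-9b-5p at 0.97. Its own centred profile was also the largest, with a root mean square of 0.85. That of miR-9b-5p was 0.44, of miR-9c-5p 0.41 and of miR-306-5p 0.37. The differences were not divided by this size, so a profile that varies more lies further from all others. miR-92b-3p also stood highest in Pe day 0 replicate 3, at 466 scaled RPM against 115 to 299 in the other 8 libraries. So did miR-9a-5p, miR-9c-5p, miR-306-5p, miR-8-5p, miR-33-5p, miR-92a-3p and the miR-2a-3p and miR-2c-3p row. miR-9b-5p, miR-2b-3p, miR-958-3p, miR-14-3p and miR-275-3p did not. Likeness was not computed without that library, so its part in these differences was not tested.

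Of the nearest miRNAs outside the members, only miR-275-3p and miR-958-3p passed a test of their own. They passed for Pe day 3 against mock, where 17.8% of all 73 did. miR-275-3p and miR-958-3p were higher in Pe day 3 than in mock, with log2 changes of 0.89 ± 0.26 SE (limma adjusted p = 0.017) and 0.76 ± 0.26 SE (limma adjusted p = 0.037). miR-8-5p, from a hairpin of the conserved miR-200 family, did not pass. Its log2 changes were -0.80 ± 0.27 SE for Pe day 3 against Pe day 0 (limma adjusted p = 0.070) and 0.84 ± 0.27 SE for Pe day 0 against mock (limma adjusted p = 0.061).

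In a list of 8 hairpins known from sensory organ precursors or from proneural and Brd genes, which includes miR-9a, 6 arms of 16 were tested. In limma 1 of 6 was higher in Pe day 3 than in mock and 0 were lower, where 9 of all 73 were higher and 4 lower (17.8% in all), so the list's share was near that of all miRNAs. Between Pe day 3 and Pe day 0, 0 of 6 were called, where 2.74% of all were. Between Pe day 0 and mock, 0 of 6 were called, where 4.11% of all were. The called arm was miR-996-3p, which shares its seed with miR-279, with a log2 change of 1.18 ± 0.30 SE (limma adjusted p = 0.0085). Its relative miR-279-3p stood at -0.40 ± 0.30 SE (limma adjusted p = 0.442). The list's median log2 change was -0.34 for Pe day 3 against Pe day 0, -0.05 for Pe day 3 against mock and 0.14 for Pe day 0 against mock. The same medians over all 73 were 0.01, 0.21 and 0.17. For the 3 tested arms of the miR-9c stretch, all of them members, they were -0.57, -0.14 and 0.58.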

How the data were processed

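The authors deposited RPM for each library, with miRge as the tool in the table's own name. Aligner, miRNA release and build are not given in the sources used here. A comparison table, deposited by the authors, gives for each miRNA its mean signal, log2 fold changes, their errors, a score and p-values. Its headers are those of DESeq2, and DESeq2 1.22.0 is named in the submitters' processing notes. Its contrasts are not named. They were matched to Pe day 0 and Pe day 3 against mock by their log2 changes, within 0.0455 over 47 miRNAs. 

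RPM were whole multiples of a step per library (tolerance 0.001 of a read), which gave the reads. These did not meet the rule for a count test. miRNAs with at least 20.1 RPM (10 reads at the median depth of 497997) in 3 libraries were tested, 73 of 467, with 99.96% of reads. Values were log2(scaled RPM + 4.02), a pseudocount of 2 reads, so changes of scarce miRNAs are understated. TMM trimmed 30% of log ratios and 5% of abundances. limma 3.58.1 (R 4.3.3) fitted all 9 libraries with trended, robust variances and was tested on simulated data. scipy 1.17.1 gave the exact tests. Libraries of the same replicate number deviated together in Pe day 0 and mock (r = 0.24, 0.43 and 0.36), so the numbers may pair these groups. Libraries of different numbers were not compared, so pairing was not tested. The main fit used no replicate block, and fits with it are given below. The correlations differed in sign for Pe day 3 with Pe day 0 (0.22, 0.17 and -0.26) and with mock (-0.01, 0.08 and -0.02). Named miRNAs were the members, the other arms of their hairpins, miR-79, the 3 nearest profiles of each member, the neighbours by level and the tested arms of the sensory organ list. Members and lists were chosen with earlier results of these data known.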

Additional observations from a re-analysis of the deposited data

Results flagged for a closer look

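Among the other arms of these hairpins, which were too scarce to test, 3 exceeded the highest mock library in some Pe library. miR-9a-3p had 19.4 RPM (24 reads) in Pe day 0 replicate 3, against at most 13.8 RPM in mock. miR-9b-3p had 47.2 RPM (14 reads) in Pe day 0 replicate 2, against at most 19.3 RPM in mock. miR-306-3p had 7.51 and 13.3 RPM in Pe day 3 replicates 2 and 3 and 9.88 and 10.5 RPM in Pe day 0 replicates 1 and 3, against at most 5.51 RPM in mock. These rest on 3 to 24 reads each. There were more Pe than mock libraries, so the highest value falls in a Pe library more often even with no change. The share of all miRNAs that exceeded mock in this way was not computed.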

How the results depend on the processing

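No alternative called a member. The members' log2 changes were refitted under other scalings, pseudocounts, filters, tests and sample sets, which gave 243 values. Of these, 0 passed an adjusted p of 0.05 in limma and the direction held in 231. Before adjustment 29 stood under 0.05, of which 16 were of miR-9c-5p for Pe day 3 against Pe day 0. In the main fit 17.8% of all 73 did so for that comparison. The shares were 26.0% for Pe day 3 against mock and 27.4% for Pe day 0 against mock. All are refits of the same 9 libraries, so they are not separate evidence. The lowest adjusted p in limma, 0.061, was that of miR-9a-5p for Pe day 0 against mock. Its log2 changes reached down to -1.17 over 20 alternatives. miR-9a-5p for Pe day 0 against mock turned to 0.065 with RPM as deposited, 0.082 with a pseudocount of 10 reads and 0.41 with limma voom. It ranged from -1.06 to 0.59 with 1 library left out. For Pe day 3 against Pe day 0 it ranged from -0.99 to 0.50, and stood at 0.60 without Pe day 0 replicate 3 and with the replicate block. miR-306-5p for Pe day 0 against mock ranged from -0.16 to 0.32 with 1 library left out, and stood at -0.35 with the block and without Pe day 0 replicate 3. miR-9c-5p for Pe day 3 against mock turned to 0.13 with RPM as deposited, where the median of all 73 was 0.47. miR-9b-5p stayed above 0 in all 20 alternatives for Pe day 0 against mock (0.552 to 0.996) and miR-9c-5p below 0 in all 21 for Pe day 3 against Pe day 0 (-0.87 to -0.39). The causes were not tested. The replicate block changed no call of a member: with it, miR-9b-5p had an adjusted p of 0.156 in limma for Pe day 0 against mock, and 0.211 in a model of only those groups. The combinations of the block with another choice, and the 3p shares without Pe day 0 replicate 3, were added after seeing the data. Of 144 ratio values, 129 kept their direction. With 1 library left out, the differences in log2 ratio that turned ranged as follows. miR-9a-5p to miR-9c-5p ranged from -0.11 to 1.03 for Pe day 3 against Pe day 0. miR-9b-5p to miR-9c-5p ranged from -0.18 to 0.40 for Pe day 0 against mock. miR-306-5p to miR-9c-5p ranged from -0.046 to 0.32 for Pe day 3 against Pe day 0. miR-9a-5p to miR-306-5p ranged from -0.34 to 0.88, -0.41 to 0.28 and -0.92 to 0.30 for Pe day 3 against Pe day 0, Pe day 3 against mock and Pe day 0 against mock. miR-9b-5p to miR-306-5p ranged from -0.12 to 0.60 and miR-9b-5p to miR-9a-5p from -0.79 to 0.94 for Pe day 3 against Pe day 0. miR-9b-5p to miR-9a-5p ranged from -0.036 to 1.70 for Pe day 0 against mock. Depth limits these results: the members had 4 to 349 reads per library.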
